A study of Mus musculus with 9 samples.

Results

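The ligands of the interleukin-1 (IL-1) family, the IL-36 cytokines among them, were followed in mouse skin after deletion of Supt6. Members were taken by name, by a rule that uses no measured value but was set with earlier results of these data known: Il1a, Il1b, Il1rn, Il1f10, Il36rn, Il36a, Il36b, Il36g, Il18 and Il33, 10 genes of the 17943 in the table. All 10 had a row and all 10 passed the filter on low counts (a sum of at least 10 over the 9 mice). Bulk RNA from skin was sequenced in 5 control and 4 Supt6-KO mice, 1 library a mouse. By the study's text the Supt6-KO samples were lesional skin and the control samples matched skin. Lesion and genotype therefore cannot be told apart here. Supt6-KO mice were K14-CreERT; Supt6 fl/fl animals injected intraperitoneally with tamoxifen once a day during the first telogen, the first resting phase of the hair cycle. Controls, labelled wild type, were Supt6 fl/fl animals injected with corn oil alone. The labels call the Supt6-KO genotype a knockdown, and the genotypes given here are those of the study's text. By that text every mouse carried the floxed alleles, and the groups differed in the Cre transgene and in tamoxifen together, which cannot be told apart here. Skin was taken on day 10 after the last injection. Sex and age in days were not given in the sources used here. The K14 promoter drives the recombinase in keratin 14-expressing epithelial cells. From single cells, the study's text reports markedly less Supt6 in basal, suprabasal and dividing keratinocytes. Whether other skin cells kept Supt6 cannot be read from bulk counts. The labels name ear skin and the study's text dorsal skin. In these libraries all 9 tested of 10 cartilage markers were called lower in Supt6-KO mice, and the list summed to between 387 and 903 CPM (read counts scaled to the size of the library) in controls and between 69.6 and 84.9 CPM in Supt6-KO mice. Whether both groups were sampled at the same skin site was not tested, and a difference in site could not be told apart from the genotype in any fold change given here. Depth was even, from 29627341 to 30967107 estimated counts per mouse.

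IL-1 family ligands are small cytokines that bind a specific receptor chain. With an agonist bound, this chain recruits an accessory protein and signals through MyD88 to NF-kB. IL-1α, IL-1β, the IL-36 agonists, IL-18 and IL-33 activate their receptors, while the IL-1 and IL-36 receptor antagonists occupy the same receptors without signalling. In skin, keratinocytes are a main source of IL-1α, IL-33 and the IL-36 cytokines, and excess IL-36 signalling is known from pustular psoriasis.

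Supt6, the deleted gene (identifier 20926), encodes the histone chaperone and transcription elongation factor SPT6. Controls held 74.5, 56.6, 63.6, 91.1 and 96.7 CPM of Supt6, and Supt6-KO mice 28.6, 24.1, 21.9 and 28.4 CPM. The groups did not overlap. The log2 fold change was -1.57 (SE 0.18, adjusted p = 1.3e-05, edgeR's quasi-likelihood test). Counts per gene of whole skin do not tell cells of the K14 lineage from other cells.

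Of the 10 ligands, 7 were called higher in Supt6-KO skin (Il1a, Il1b, Il36a, Il36b, Il36g, Il36rn and Il18), 1 lower (Il1f10), and 2 were not called (Il1rn and Il33). A call needed an adjusted p under 0.05 in edgeR's quasi-likelihood test and a change of at least 2-fold. Among all 16426 genes tested, 20.9% were called higher and 24.9% lower, so a call by itself is common in these libraries. Every Supt6-KO mouse lay above every control for 8 ligands, a separation found for 28.9% of all genes, and below every control for 1 ligand, found for 31.8%. The median log2 fold change was 3.00 over the ligands and -0.07 over all genes. Bulk RNA does not tell a change in the number of cells of a type from a change in RNA per cell, and this holds for each value below. Scaling matters for the whole table: TMM factors were 1.20 to 1.31 in controls and 0.67 to 0.91 in Supt6-KO mice, and scaling to library totals moved the median of all genes to -0.76, with 1470 genes higher and 6802 lower in place of 3427 and 4088. Under that scaling Il1a kept an adjusted p of 0.0055 but lost the 2-fold call.

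**Figure D1:**
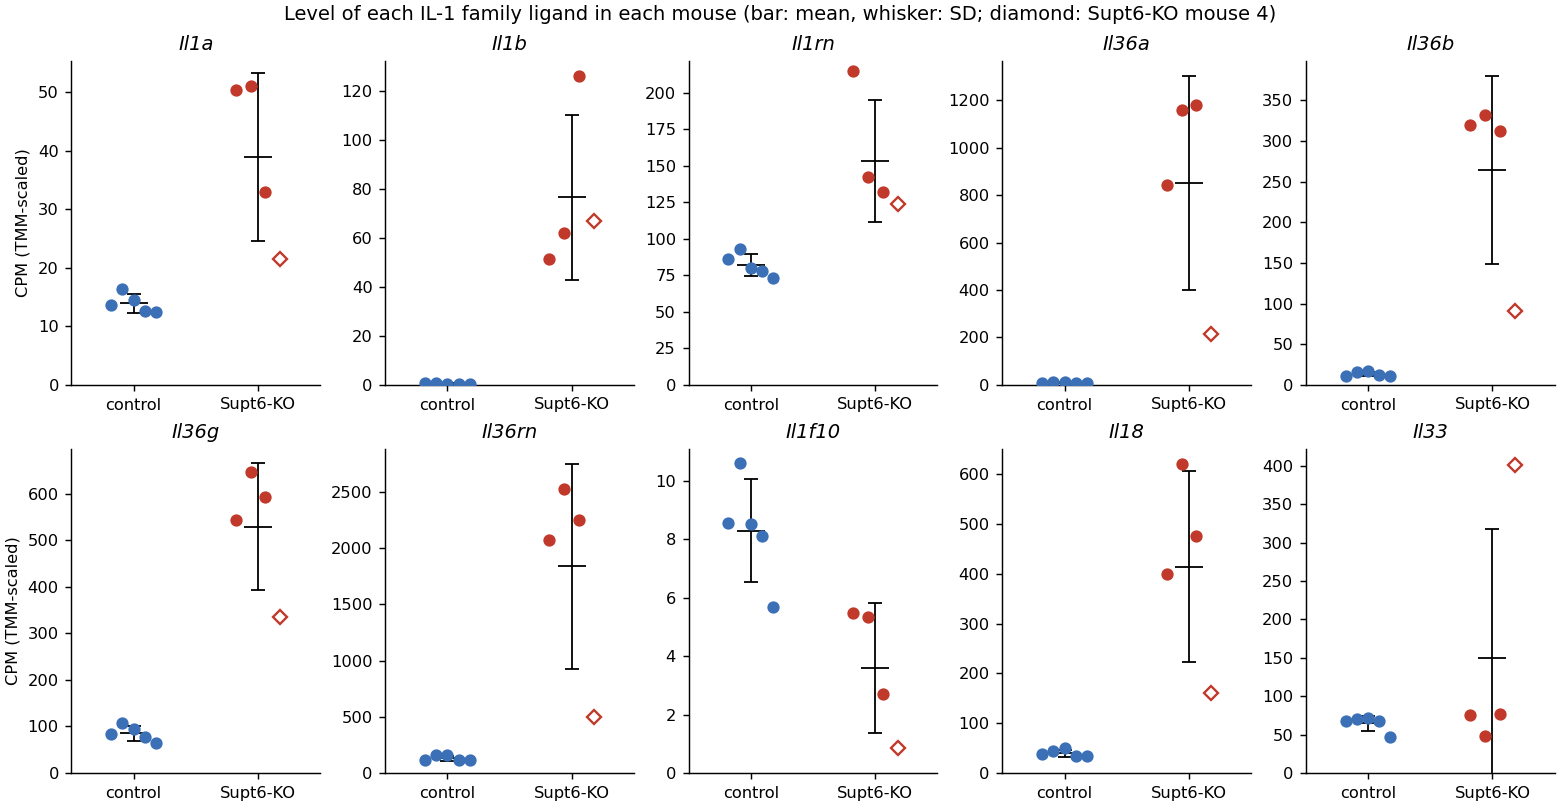
CPM after TMM scaling (vertical axis, linear, from 0) of each ligand in the 5 control (blue) and 4 Supt6-KO (red) mice, with the mean and SD of each group; a lower whisker that would pass 0 ends at the axis (Il33), and the open diamond is Supt6-KO mouse 4. Mouse 4 was the lowest Supt6-KO mouse for Il36a, at 214 CPM, and the highest for Il33, at 401 CPM.

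All of the IL-36 agonists rose. Il36a (identifier 54448, listed as Il1f6) encodes IL-36α. Control mice held 7.86, 14.0, 13.3, 7.68 and 5.91 CPM of Il36a. Supt6-KO mice held 844, 1159.8, 1182 and 214 CPM. The lowest Supt6-KO mouse was thus far above the highest control, and the spread among Supt6-KO mice came mostly from mouse 4. Means were 9.76 ± 3.66 (SD, n = 5) and 849.8 ± 451 CPM (SD, n = 4), and the log2 fold change was 6.45 (SE 0.51, adjusted p = 1.5e-06, edgeR's quasi-likelihood test).

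Il36b (identifier 69677, listed as Il1f8), which encodes IL-36β, stood at 10.5, 15.4, 16.5, 12.4 and 10.9 CPM in controls. It stood at 320.4, 333, 313 and 91.1 CPM in Supt6-KO mice. Mice 1 to 3 were nearly level and mouse 4 was lower, yet above every control. On the log2 scale the change was 4.33 (SE 0.35, adjusted p = 1.6e-06, edgeR's quasi-likelihood test). Il36g (identifier 215257, listed as Il1f9) encodes IL-36γ and was already well expressed in control skin, at 83.2, 108, 93.8, 77.9 and 64.6 CPM. In Supt6-KO mice it reached 544, 646, 593 and 335 CPM. Groups were again apart, with the smallest change of the IL-36 agonists (log2 fold change 2.63, SE 0.21, adjusted p = 1.6e-06, edgeR's quasi-likelihood test).

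Il36rn (identifier 54450, listed as Il1f5) encodes the IL-36 receptor antagonist, which holds the IL-36 receptor in an inactive state. Controls held 119, 156, 156, 117 and 113 CPM. Supt6-KO mice held 2069.8, 2528, 2256 and 500.1 CPM. The antagonist rose together with the agonists in every Supt6-KO mouse, with means of 132 ± 21.6 (SD, n = 5) and 1839 ± 912 CPM (SD, n = 4; log2 fold change 3.80, SE 0.39, adjusted p = 7.1e-06, edgeR's quasi-likelihood test).

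Il1f10 (identifier 215274) encodes IL-38, a family member reported to dampen inflammation, and was the ligand that fell. Controls held 8.56, 10.6, 8.53, 8.11 and 5.68 CPM of it, from 223 to 387 counts. Supt6-KO mice held 5.47, 5.33, 2.70 and 0.862 CPM, from 24 to 131 counts. The highest Supt6-KO mouse and the lowest control were close, and mouse 4 was lowest of all. This gave a log2 fold change of -1.21 (SE 0.42, adjusted p = 0.022, edgeR's quasi-likelihood test). This call was the least firm of the 8: without Supt6-KO mouse 4 the change was -0.88 (adjusted p = 0.010), short of 2-fold, and without mouse 3 it was -1.10 (adjusted p = 0.065). The size of the fall also depended on transcript length. With the correction for length described below it was -2.82 (adjusted p = 4.5e-05, edgeR's quasi-likelihood test).

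IL-1β, made mainly by myeloid cells and released after cleavage by caspase-1, had the largest fold of the ligands. Il1b (identifier 16176) was low in controls, with 33, 29, 17, 12 and 13 counts, or 0.882, 0.794, 0.471, 0.325 and 0.331 CPM. Supt6-KO mice had 1230, 1292, 2755 and 1864 counts, or 51.4, 62.0, 126 and 67.0 CPM. Mouse 3 was highest and the other Supt6-KO mice were close to each other, mouse 4 included. The mean was 137-fold higher (log2 fold change 7.09, SE 0.38, adjusted p = 1.5e-07, edgeR's quasi-likelihood test). The use of strand in counting was not given in the sources used here, so reads from Il1b and from the antisense gene annotated over it (Il1bos) cannot be told apart, and likewise for Il1a and Gm14023.

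IL-1α is stored in keratinocytes and is active without cleavage. Il1a (identifier 16175) stood at 13.7, 16.4, 14.5, 12.7 and 12.5 CPM in controls. It stood at 50.4, 51.0, 32.9 and 21.5 CPM in Supt6-KO mice. Mice 1 and 2 were highest and mouse 4 came nearest to the controls without overlapping them. The log2 fold change was 1.48 (SE 0.23, adjusted p = 0.00013, edgeR's quasi-likelihood test).

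Il1rn (identifier 16181) encodes the IL-1 receptor antagonist. Controls held 86.1, 92.9, 80.2, 78.3 and 73.3 CPM, and Supt6-KO mice 215, 142, 132 and 124 CPM. The groups did not overlap, and mouse 1 stood above the other Supt6-KO mice. The log2 fold change of 0.90 (SE 0.16, adjusted p = 0.00045, edgeR's quasi-likelihood test) passed the p threshold but stayed under 2-fold, so the gene was not called. With library totals it was 0.20 (adjusted p = 0.31).

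Il18 (identifier 16173) encodes IL-18, another substrate of caspase-1. Controls held 37.2, 44.3, 49.4, 33.9 and 34.2 CPM. Supt6-KO mice held 400.0, 621, 475 and 161 CPM. The order of the Supt6-KO mice, with mouse 2 highest and mouse 4 lowest, was that of Il36rn. Its log2 fold change was 3.38 (SE 0.32, adjusted p = 4.1e-06, edgeR's quasi-likelihood test).

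Il33 (identifier 77125) encodes IL-33, a nuclear cytokine released from damaged epithelium. Its control values were 67.2, 70.5, 70.9, 67.8 and 46.8 CPM. Its Supt6-KO values were 75.9, 48.1, 76.2 and 401 CPM. Mice 1 to 3 lay within or just above the control range and mouse 4 alone was high, so the groups overlapped. The log2 fold change of 1.22 (SE 0.52, adjusted p = 0.053, edgeR's quasi-likelihood test) was not called, and without mouse 4 it was 0.04 (adjusted p = 0.84).

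**Figure D2:**
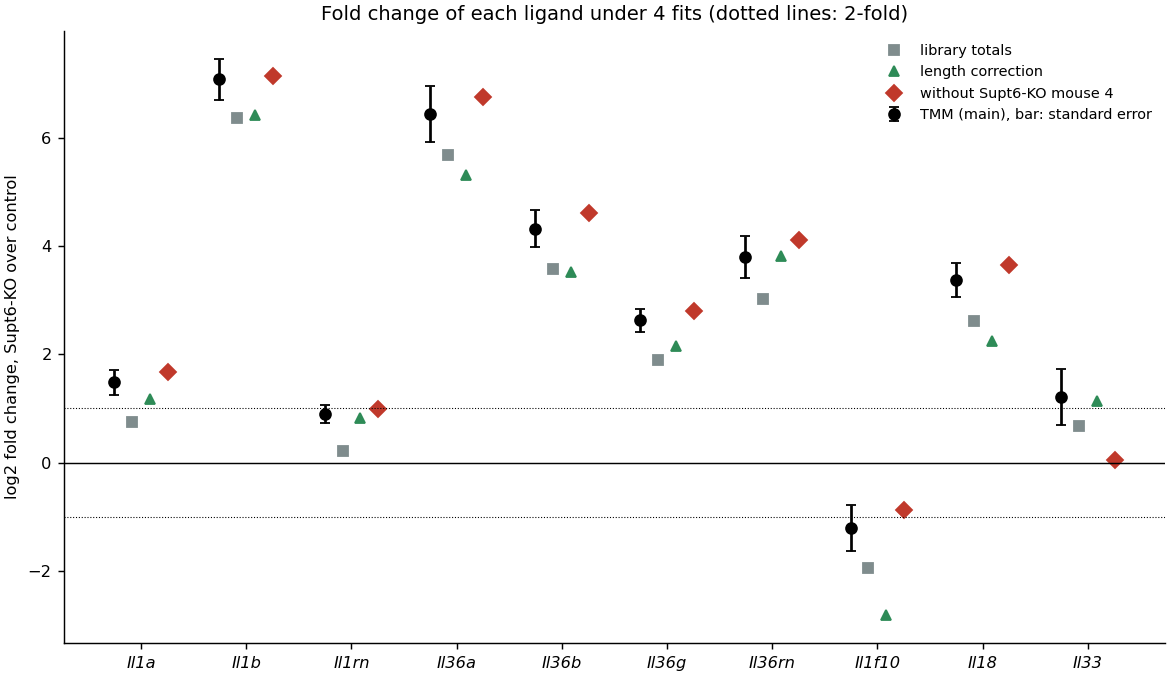
Log2 fold change, Supt6-KO over control (vertical axis), of each ligand with TMM scaling (black, bar: standard error), with library totals (grey squares), with a correction for transcript length (green triangles) and without Supt6-KO mouse 4 (red diamonds); dotted lines mark 2-fold. Il1b stays above 6 in all 4 fits, while Il33 goes from 1.22 to 0.04 without mouse 4.

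Mouse 4 stood apart in several ligands at once. It was the lowest Supt6-KO mouse for Il1a, Il1rn, Il36a, Il36b, Il36g, Il36rn, Il1f10 and Il18, and the highest for Il33. Its Supt6 level, 28.4 CPM, was within the range of the other Supt6-KO mice. Its keratinocyte markers differed too. The 5 genes of stressed keratinocytes (Krt6a, Krt6b, Krt16, Sprr1b and Sprr2d), which keratinocytes make after injury, summed to 24598 CPM in mouse 4, to 6702, 3619.8 and 6508.5 CPM in mice 1 to 3, and to between 93.6 and 225 CPM in the control mice. The suprabasal list, led by Krt10, summed to 18939.9 CPM in mouse 4 and to between 35398 and 38833 CPM in the other Supt6-KO mice. The basal list summed to 14105 CPM in mouse 4 and to between 5801 and 8402 CPM in the others. The part of this shift in the ligand values was not tested. With mouse 4 left out, all 7 higher calls among the ligands were kept, and the log2 fold changes were 6.77 for Il36a, 4.61 for Il36b, 2.80 for Il36g, 4.11 for Il36rn and 3.65 for Il18.

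Deviations of each mouse from its group mean, on the log2 scale, were set against each other over the 9 mice as a description. Among Il36a, Il36b, Il36g, Il36rn and Il18 the correlation of these deviations ran from 0.888 to 0.986 in every pair. Against the same genes Il1a had 0.80 to 0.87, Il1f10 0.84 to 0.89 and Il1rn 0.32 to 0.49. Il1a and Il1f10 had 0.979 with each other. Il1b stood aside, with 0.084 to 0.335 against the same genes, and Il33 ran opposite to them, from -0.667 to -0.910. All values of a mouse share 1 library and its scaling factor, and mouse 4 is the extreme point for each of these genes except Il1b and Il1rn. Of the genes most like each ligand over the 9 mice by Pearson's r on log2 CPM, among 16425 genes compared, Il36a was first for Il36b (r = 0.997). For Il36a the first was Ostm1 (r = 0.998) and Il36g the second (r = 0.998). For Il36g, 2310011J03Rik (r = 0.998) and Cstb (r = 0.998), which encodes a cystatin, came before Il36a (r = 0.998). For Il36rn the first was Csta1 (r = 0.998), which encodes a cystatin protease inhibitor, and for Il1a it was Cpa4 (r = 0.991), which encodes a carboxypeptidase. For Il1b the first were Saa3 (r = 0.999), Trem1 (r = 0.998) and Fpr2 (r = 0.998), the last a pair of genes for receptors of myeloid cells. For Il33 it was Hnrnpa1 (r = 0.990), which encodes an RNA-binding protein, and for Il1f10 it was Npl (r = 0.993), of sialic acid breakdown. When ranked by Spearman's rho, only 2 of the 30 gene pairs stayed in the top 3, so these names depend on the measure.

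Levels of different ligands were compared per length of their longest GENCODE transcript, as CPM per kilobase. By this length, in control skin Il36g (51.9), Il36rn (46.5) and Il18 (45.0) were highest (SD 9.96, 7.61 and 7.70, n = 5). Within a mouse Il36g was above Il18 in 5 of 5 controls and above Il36rn in 4 of 5. Il1rn (32.2) and Il33 (25.4) followed. Il1f10 (15.4), Il36a (11.1), Il36b (10.8) and Il1a (7.06) were lower, and Il1b (0.413) was lowest. In Supt6-KO skin Il36a (962 CPM per kilobase), Il36rn (647) and Il18 (468) led, with SDs of 511, 321 and 217 (n = 4) that mouse 4 widens for each of them. Within a mouse Il36a was above both Il36rn and Il18 in 4 of 4 Supt6-KO mice. Il36g (321) and Il36b (217) came next. Il1rn (60.0), Il33 (59.1), Il1b (56.5) and Il1a (19.7) followed, and Il1f10 (6.67) was lowest. Il36a was thus seventh of the 10 in controls and first in Supt6-KO mice by this length. Its share of the summed level of all 10 ligands went from 4.38% ± 0.97 (SD, n = 5) to 31.9% ± 7.54 (SD, n = 4). The share of Il1rn went from 13.2% to 2.52%, although its own level did not fall. The share of Il36rn was 19.0% in controls and 21.8% in Supt6-KO mice.

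The summed level of the ligands was 236, 292, 279, 225 and 198 CPM per kilobase in controls and 2917, 3726, 3482 and 1145.5 in Supt6-KO mice. The IL-36 agonists and Il36rn together took 46.7% to 51.1% of this sum in controls, and 78.1%, 77.0%, 79.0% and 60.8% in Supt6-KO mice 1 to 4. The antagonists Il1rn and Il36rn together took 30.9% to 34.7% in controls and 27.9%, 25.4%, 24.3% and 19.6% in Supt6-KO mice. Both sets of shares were apart between the groups, and the part of the length trend in them was not tested. These shares rest on the transcript length chosen. With the median transcript length, the order in controls was Il36rn (23.9%), Il33 (22.6%), Il1rn (15.5%), Il36g (13.1%) and Il18 (12.9%), so that Il36g and Il18 left the first places and the share of Il33 was larger than the 10.4% found with the longest transcript. In Supt6-KO mice Il36rn (30.1%) was then first and Il36a (28.3%) second. Il1b was lowest in controls and Il1f10 lowest in Supt6-KO mice with either length.

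**Figure D3:**
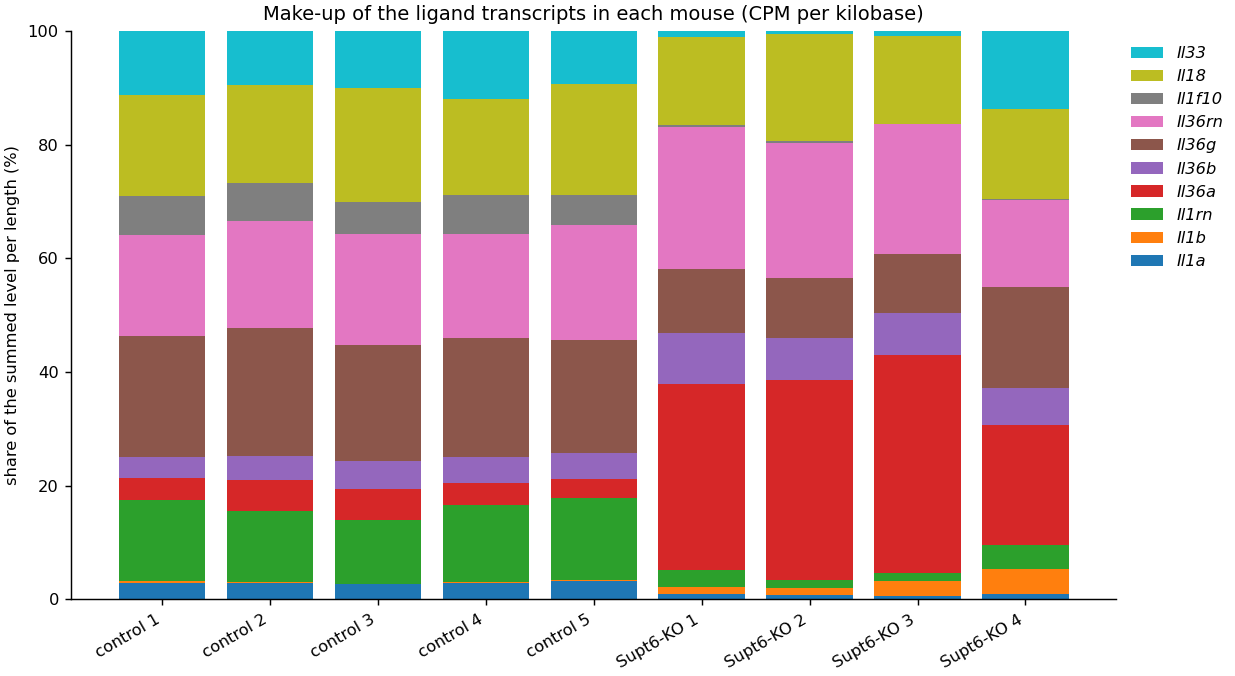
Share (%) of each ligand in the summed CPM per kilobase of the 10 ligands in each mouse, as stacked bars from 0 to 100. Il36a (red) widens from 3.39% to 5.43% in the controls to between 21.1% and 38.4% in the Supt6-KO mice, and Il1rn (green) narrows.

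The balance between a ligand and its antagonist or decoy was compared as a ratio of counts within each mouse. Scaling between mice cannot change such a ratio, but a trend with transcript length, described below, can, so each ratio is also given with that trend removed from every mouse. Over 7 ratios, 4 passed an exact two-sided permutation test over the mice after Benjamini-Hochberg adjustment, and 0.0159 is the smallest p that 5 against 4 mice allow. Il1b over Il1rn was 0.0104, 0.00869, 0.00604, 0.00432 and 0.00469 in controls and 0.239, 0.436, 0.953 and 0.541 in Supt6-KO mice. The ratio was highest in mouse 3, and the groups did not overlap. These are ratios of counts and not of levels: per kilobase, Il1b was above Il1rn in Supt6-KO mice 3 (92.9 against 51.8 CPM per kilobase) and 4 (49.4 against 48.5), and below it in the other mice. The geometric means differed 74.8-fold (exact permutation p = 0.0159, adjusted p = 0.0278), and the log2 difference was 6.22, or 5.65 with the length trend removed.

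Il36a over Il36rn was 0.0660, 0.0898, 0.0857, 0.0658 and 0.0522 in controls. In Supt6-KO mice it was 0.408, 0.459, 0.524 and 0.427. Here mouse 4 was level with the others, in contrast to the levels of both genes. The difference was 2.68 on the log2 scale (exact permutation p = 0.0159, adjusted p = 0.0278), and 1.59 with the length trend removed (the same p), where Il36a has 883 bases and Il36rn 2842. Il36b over Il36rn moved less, from a median of 0.0986 to 0.147 (log2 difference 0.61, exact permutation p = 0.0159, adjusted p = 0.0278), again with no overlap. That difference did not hold: with the length trend removed it was -0.17 and the groups overlapped (exact permutation test, adjusted p = 0.37).

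Il36g over Il36rn took the other direction in 3 of 4 mice. It was 0.697, 0.693, 0.602, 0.666 and 0.570 in controls and 0.263, 0.256, 0.263 and 0.670 in Supt6-KO mice. Mouse 4 lay within the control range, and the ratio did not pass (log2 difference -0.96, exact permutation p = 0.0635, adjusted p = 0.0741). Il1a over Il1rn had medians of 0.170 and 0.242 and also did not pass after adjustment (log2 difference 0.54, exact permutation p = 0.0476, adjusted p = 0.0667). Both calls turned on mouse 4: without it the groups did not overlap in either ratio, and the log2 differences were -1.30 for Il36g over Il36rn and 0.70 for Il1a over Il1rn (exact permutation test, adjusted p = 0.0417 for each, 5 against 3 mice). With the length trend removed and all mice kept, Il36g over Il36rn passed with every Supt6-KO mouse below every control (log2 difference -1.45, exact permutation test, adjusted p = 0.0278), and Il1a over Il1rn had 0.31 (exact permutation test, adjusted p = 0.13). Il18 over Il18bp, the gene of the IL-18 binding protein that neutralises IL-18, rose from a median of 76.0 to 313 (log2 difference 2.21, exact permutation p = 0.0159, adjusted p = 0.0278), on only 15 to 33 counts of Il18bp a mouse, and had a log2 difference of 1.20 with the length trend removed (the same p). Il33 over Il1rl1, the gene of the IL-33 receptor ST2 and its soluble decoy, had medians of 31.4 and 18.2 with overlapping groups (log2 difference -0.24, exact permutation p = 0.746, adjusted p = 0.746; -0.90 with the length trend removed, adjusted p = 0.22).

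On chromosome 2 (GRCm38), 6 of the ligands form a block of 198 kb. In order these are Il36b (chr2:24153172-24160103), Il36g (chr2:24186476-24193567), Il36a (chr2:24215417-24225701), Il36rn (chr2:24276954-24282432), Il1f10 (chr2:24291196-24294165) and Il1rn (chr2:24336860-24351491). Il1f10, the ligand that fell, sits between Il36rn, which rose 13.9-fold, and Il1rn. Psd4, the next gene after the block, had a log2 fold change of -0.31 (adjusted p = 0.047, edgeR's quasi-likelihood test), under 2-fold. Il1a (chr2:129299609-129310186) and Il1b (chr2:129364569-129371164) lie together within 71.6 kb elsewhere on the chromosome. Ckap2l, on the one side of this pair, had a log2 fold change of 0.32 (adjusted p = 0.40, edgeR's quasi-likelihood test). F830045P16Rik, on the other side, had 316 to 381 counts in controls and 0 in all 4 Supt6-KO mice, the reason for which was not tested. Il18 lies on chromosome 9 (chr9:50554700-50581841) and Il33 on chromosome 19 (chr19:29925113-29960718).

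Promoter sequences (250 bases before to 50 after the start, RefSeq, GRCm38.p6) were given for 9 of the 10 ligands, as 13 promoters. They were searched on both strands for a short form of the NF-kB letters (GGGNNTTCC), for AP-1 letters (TGANTCA) and for TATA letters (TATAAA). NF-kB and AP-1 are factors downstream of the IL-1 family receptors. The NF-kB letters were in 0 of 13 and in 5.82% of all 32851 promoters, the AP-1 letters in 3 of 13 and in 7.81%, and the TATA letters in 6 of 13 and in 13.6%. A match describes the letters only, and no match says only that these letters are not in the window. Longer NF-kB sites, with more bases between the outer letters, were not searched. The stretches below are shown because Il1b and Il1a had the largest and the smallest called rise, and because Il1rn and Il36b share the AP-1 letters with Il1a. Capitals mark the TATA and AP-1 letters. The TATA letters begin 31 bases before the start of Il1b and 32 bases before that of Il1a. In promoters of Il33 they begin 29 and 203 bases before the start. On the opposite strand they begin 175 bases before the start of Il18 and 15 bases after a start of Il1rn. The AP-1 letters begin 12 bases before the start in Il1a, 141 in Il1rn and 236 in Il36b. Il1b is at chr2:129371090-129371239 and Il1a at chr2:129309923-129310072, both on the minus strand, Il1rn at chr2:24336689-24336755 and Il36b at chr2:24152922-24152972, both on the plus strand.
Il1b: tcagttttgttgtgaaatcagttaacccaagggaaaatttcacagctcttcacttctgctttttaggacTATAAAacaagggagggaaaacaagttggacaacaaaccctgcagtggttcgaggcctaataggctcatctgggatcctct
Il1a: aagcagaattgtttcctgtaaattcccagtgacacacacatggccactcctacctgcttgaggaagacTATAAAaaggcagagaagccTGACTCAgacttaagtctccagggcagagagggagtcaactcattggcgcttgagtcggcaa
Il1rn: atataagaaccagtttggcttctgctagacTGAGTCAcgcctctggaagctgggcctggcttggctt
Il36b: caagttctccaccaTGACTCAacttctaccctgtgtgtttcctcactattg

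The receptor list had a smaller median change than the ligands, and the difference was not tested. For its counts of calls, 20.9% of all genes tested were called higher and 24.9% lower. Of 11 genes of receptors, coreceptors and decoys, 2 were called higher, 2 lower and 7 were not called, with a median log2 fold change of -0.04, or 0.27 with the gene at 0 in all Supt6-KO mice set at its bound, against -0.07 over all genes. Il1rl2, the IL-36 receptor chain, stood at 78.8 ± 9.26 CPM (SD, n = 5) in controls and 95.3 ± 22.9 CPM (SD, n = 4) in Supt6-KO mice (log2 fold change 0.27, adjusted p = 0.15, edgeR's quasi-likelihood test). Il1r1, the signalling receptor for IL-1α and IL-1β, stood at 34.6 and 33.6 CPM (adjusted p = 0.75, edgeR's quasi-likelihood test). Il1rap, the shared accessory chain, stood at 43.4 and 34.8 CPM, and Il1r2, the IL-1 decoy receptor, at 84.6 and 119 CPM, both short of a call. Il18rap, the IL-18 accessory chain, went from 0.830 to 4.43 CPM (log2 fold change 2.41, adjusted p = 5.1e-06, edgeR's quasi-likelihood test) and Il18bp from 0.572 to 1.16 CPM (log2 fold change 1.01, adjusted p = 0.0080, edgeR's quasi-likelihood test). Il18r1, the ligand-binding chain for IL-18, had a log2 fold change of -0.81 (adjusted p = 0.0080, edgeR's quasi-likelihood test), under 2-fold. Il1rl1 had 0.89 (adjusted p = 0.0034) and Sigirr, an inhibitory receptor of the family, -0.44 (adjusted p = 0.049), also under 2-fold by edgeR's quasi-likelihood test. The lower calls were Il1rapl1, with 3 to 6 counts in controls and 0 to 2 in Supt6-KO mice, and Il1rapl2, with 0 to 4 and 0 counts. Both were lost with a replicate block and with a length correction. With single mice left out, the receptor list held 1 to 2 higher and 0 to 2 lower calls.

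Genes that process or release the ligands were called higher in 8 and lower in 2 of 25 tested, with a median log2 fold change of 0.44. The shares over all genes tested were 20.9% higher and 24.9% lower. With single mice left out, this list held 7 to 10 higher and 0 to 2 lower calls. Pycard, the inflammasome adaptor ASC, stood at 63.9 ± 18.3 CPM (SD, n = 5) in controls and at 440.0 ± 168 CPM (SD, n = 4) in Supt6-KO mice (log2 fold change 2.79, adjusted p = 8.1e-06, edgeR's quasi-likelihood test). The sensors Nlrp3 (2.84) and Aim2 (2.89) had log2 fold changes of the same size at lower levels. Casp1, which cleaves the IL-1β and IL-18 precursors, had a log2 fold change of 1.05 (adjusted p = 0.011, edgeR's quasi-likelihood test). Its level was 31.6, 27.4 and 27.0 CPM in Supt6-KO mice 1 to 3 and 9.88 CPM in mouse 4, against a control mean of 11.6 CPM. Among the others called higher were Casp4 (2.24), Nlrp1a (1.44) and Gsdmc (4.02), a gasdermin that forms membrane pores. Nlrp1b (-1.40) and Gsdma3 (-1.22) were called lower. Gsdmd, the pore protein through which IL-1β leaves cells, had a log2 fold change of 0.44 (adjusted p = 0.083, edgeR's quasi-likelihood test). Ctss, which encodes the protease cathepsin S, had a log2 fold change of 0.99 (adjusted p = 0.00013, edgeR's quasi-likelihood test), just under 2-fold. The neutrophil proteases that can cleave IL-36 precursors had little RNA in both groups, and their protein was not measured. Elane had at most 1 count in any mouse, Ctsg had 12 to 28 counts in controls and 3 to 20 in Supt6-KO mice (adjusted p = 0.87, edgeR's quasi-likelihood test), and the mean of Prtn3 was 0.139 CPM in the control group and 0.0966 CPM in the Supt6-KO group.

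Calls over all genes tested came to 20.9% higher and 24.9% lower. Of 24 genes of the pathway below the receptors, 1 was called higher, 3 lower and 20 were not called (median log2 fold change -0.14). Nfkbiz, the NF-kB cofactor IκBζ that IL-36 is known to induce, was the higher one, from 26.2 to 59.0 CPM (log2 fold change 1.17, adjusted p = 0.00051, edgeR's quasi-likelihood test). With single mice left out, the list held 0 to 1 higher and 2 to 4 lower calls. Those called lower were Rela (-1.36) and Nfkb2 (-1.35), NF-kB subunit genes, and Tnfaip3 (-1.04), which encodes the inhibitor A20. A further 15 genes passed the p threshold of edgeR's quasi-likelihood test but stayed under 2-fold, in both directions. Those with positive log2 fold changes included the shared adaptor Myd88 (0.86) and the kinase genes Irak4 (0.77) and Map3k7 (0.66). Those with negative values included the NF-kB subunit genes Relb (-0.88), Rel (-0.78) and Nfkb1 (-0.62), Tab1 (-0.71), Irak1 (-0.65) and Nfkbia (-0.57), which encodes the inhibitor IκBα. Over the list, 6 of the 24 genes were above every control in all Supt6-KO mice and 9 below. Among all genes tested these shares were 28.9% and 31.8%, so such separations are common in these libraries.

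Beside the counts of calls that follow, 20.9% of all genes tested were called higher and 24.9% lower. Of 19 tested genes known as targets of IL-1 or IL-36 in keratinocytes, 18 were called higher and 0 lower, with a median log2 fold change of 6.61. The list was assembled with earlier results of these data known, so its direction is no independent evidence. S100a8 and S100a9, subunits of the antimicrobial protein calprotectin, were the most abundant. S100a9 had 157 to 794 counts in controls and 43444 to 81083 in Supt6-KO mice (log2 fold change 7.78, adjusted p = 6.6e-07, edgeR's quasi-likelihood test). Cxcl2, a neutrophil chemokine, had 1 to 8 counts in controls and 835 to 1991 in Supt6-KO mice. Defb4, a β-defensin, had 0 to 3 counts in controls and 339, 371, 1291 and 1995 in Supt6-KO mice, highest in mouse 4. Saa3, an acute-phase gene, had 0 to 19 counts in controls and 778 to 2344 in Supt6-KO mice. Smaller changes were those of Lcn2 (log2 fold change 1.92), which encodes an iron-sequestering protein, and Ccl20 (1.93), which encodes a chemokine for T cells and dendritic cells. Il20 was the tested gene that was not called, and Il17c had too few counts to test. Of 4 other cytokines of epithelial alarm, Tslp (log2 fold change 3.79) and Tnf (2.22) were called higher, and Hmgb1 (0.77) and Il25 (1.14) were not called.

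**Figure D4:**
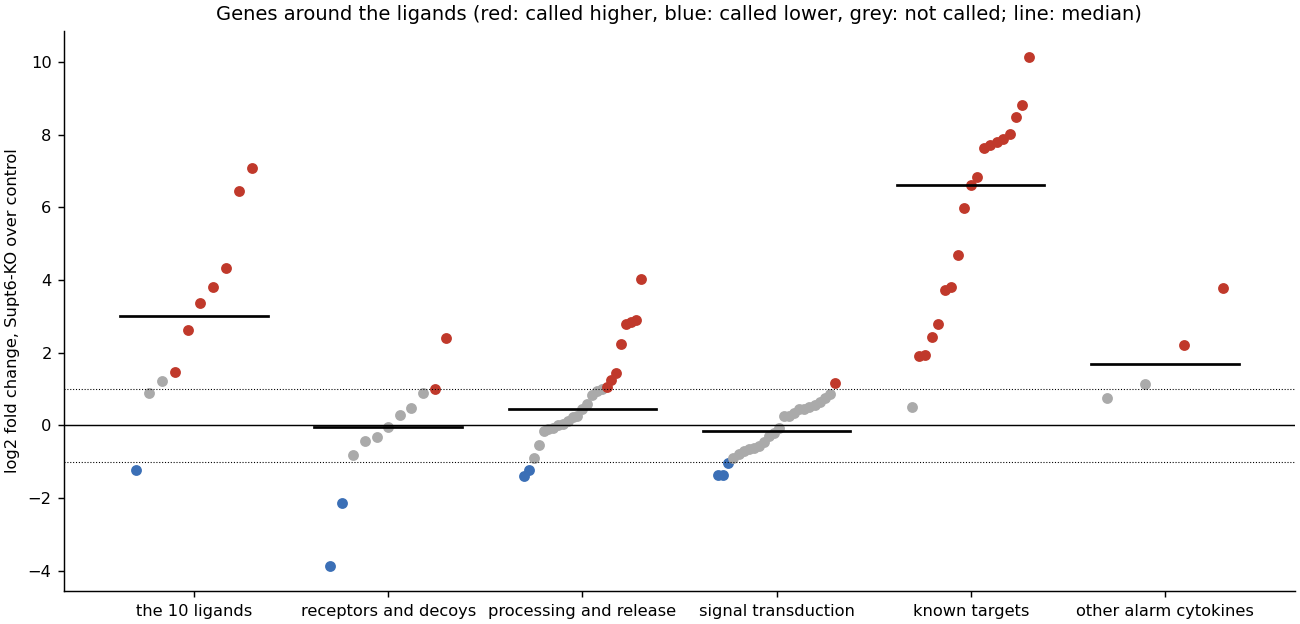
Log2 fold change, Supt6-KO over control (vertical axis), of each tested gene of the ligands and of the 5 pathway lists; red points were called higher, blue lower and grey not called, black lines are list medians and dotted lines mark 2-fold. The ligands have a median of 3.00 and the known targets of 6.61, while the median of the receptors is -0.04.

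Markers of other cells moved with the groups. Among all genes tested, 20.9% were called higher and 24.9% lower. Of 10 tested neutrophil markers, 7 were called higher and 1 lower (Mpo). The list summed to 16.7 to 22.4 CPM in controls and to 52.9, 53.1, 113 and 44.5 CPM in Supt6-KO mice. Mmp9 had the highest mean of the list in controls (12.6 CPM). In Supt6-KO mice Retnlg had it (20.6 CPM, against 17.4 CPM for Mmp9), with 53.4 CPM in mouse 3. Ltf was at 0 in all controls, Ly6g had at most 1 count in controls and 0 to 15 in Supt6-KO mice, and Retnlg had 3 to 19 and then 113 to 1167. Mouse 3, highest in this list, was also the mouse with the most Il1b. Of 10 monocyte and macrophage markers, 8 were called higher and 1 lower (Csf1r), and the list, led by Lyz2, summed to 160 to 324 CPM in controls and to 892.5, 927, 1266 and 730.1 CPM in Supt6-KO mice. The part of these cells in the Il1b value was not tested. In the Langerhans and dendritic cell list, 1 of 8 was called higher and 4 lower, and in the T cell list 1 of 6 higher and 2 lower. All 5 stressed keratinocyte genes were called higher, 3 of 6 suprabasal genes were higher and 0 lower, and 4 of 7 basal genes were lower and 0 higher. Lists of cartilage (9 of 9 tested), fibroblasts (2 of 6), endothelial cells (4 of 5), adipocytes (4 of 4), skeletal muscle (4 of 5) and hair follicle (6 of 6) held lower calls and 0 higher, while 1 of 6 mast cell genes was higher. With single mice left out, the endothelial list held 2 to 4 lower calls. How far a larger epidermal part of the sample raises the keratinocyte ligands was not tested.

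Transcript length also moved with the comparison. Over all genes tested, the median log2 fold change was 1.29 for the 913 genes with transcripts of at most 1000 bases, 0.65 from 1000 to 2000 bases, 0.04 from 2000 to 4000, -0.55 from 4000 to 8000 and -1.08 for the 889 genes over 8000. The ligands span 538 (Il1f10) to 2842 bases (Il36rn), so all lie in classes with a positive median, and Il1f10 fell although it is the shortest. With a correction for length in the fit, the same direction and the same 7 higher and 1 lower counts were found among the ligands, with log2 fold changes of 5.32 for Il36a, 6.42 for Il1b, 3.53 for Il36b, 2.16 for Il36g, 2.24 for Il18 and -2.82 for Il1f10. Supt6 itself then had -0.79 (adjusted p = 0.00014, edgeR's quasi-likelihood test), under 2-fold.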

How the data were processed

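Per the labels and the study's methods, poly(A) RNA libraries were sequenced with paired reads, aligned to mm10 with Bowtie2 2.3.4.3 and quantified with RSEM 1.3.1; the submitters' processing notes also name HISAT and DESeq2 1.4.5. The authors deposited RSEM's expected counts per gene, without normalization between mice, of which 9% were not whole, none of them for the ligands. TPM values, deposited by the authors for 6 of the 9 mice, served only as an alternative for levels per length. The annotation release was not given in the sources used here. Of 17943 gene identifiers, 17911 were matched to RefSeq genes of GRCm38, and 17862 had a transcript length, taken from GENCODE.

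Counts were rounded, genes with a sum under 10 over the 9 mice left out, and groups compared in R 4.3.3 by the quasi-likelihood test of edgeR 4.0.16 with TMM scaling, no covariate and Benjamini-Hochberg adjustment over 16426 genes. Groups and replicate numbers came from the sample titles. CPM used the TMM-scaled library size. Ratios used a pseudocount of 0.5 counts, also with each mouse's lowess trend of log2 CPM on transcript length removed, and likeness log2(CPM + 0.5). Exact permutation tests were run in Python 3.11.15. Nothing in the labels gives litters or batches, and p-values measure the spread between these mice. At 29627341 counts a mouse or more, 3 counts were taken as the floor, which covers counting error only. On simulated counts for 16189 genes edgeR recovered 98% of 200 changed genes with 6 false calls. These 200 genes were balanced in direction and all well counted, and no length trend was set. The recovery therefore does not cover low counts, a length trend or as many changed genes as were called in these libraries. The ligands and the gene lists were chosen with earlier results of these data known. Genes named were Supt6, the ligands, the receptors and the leading called genes of each list, and the flanking genes of the ligand clusters. A called gene of the processing list is counted but not reported here. Alternatives were DESeq2 1.42.0, other scalings and filters, leaving out each mouse, a test against 2-fold, a correction for transcript length and a replicate block.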

Additional observations from a re-analysis of the deposited data

Results flagged for a closer look

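Groups of values examined for outliers included each ligand, ratio and marker sum in each genotype. Of all 78 groups, 7 held a mouse whose gap to the rest was beyond Dixon's 95% limit, where chance gives about 3.9. In 5 of them the mouse was Supt6-KO mouse 4. Its Il36b level was 91.1 CPM where the group median was 317 CPM, and its Il33 level was 401 CPM where the median was 76.1 CPM. Its ratio of Il36g to Il36rn was 0.670 (median 0.263) and that of Il33 to Il1rl1 was 78.8 (median 18.2). Its stressed keratinocyte genes summed to 24598 CPM (median 6605 CPM). Among controls, mouse 5 had the lowest Il33 level, 46.8 CPM against a median of 67.8 CPM. Supt6-KO mouse 3 had the highest neutrophil marker sum, 113 CPM against a median of 53.0 CPM.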

How the results depend on the processing

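None of the 10 ligands changed direction in any of 19 alternatives. Log2 fold changes ranged from 6.26 to 7.31 for Il1b, 5.08 to 6.77 for Il36a, 3.41 to 4.61 for Il36b, 1.91 to 2.80 for Il36g, 3.03 to 4.11 for Il36rn, 2.17 to 3.65 for Il18, 0.75 to 1.68 for Il1a, 0.20 to 0.98 for Il1rn, 0.04 to 1.50 for Il33 and -3.03 to -0.88 for Il1f10. Tested against 2-fold, 0 ligands were lower (Il1f10, adjusted p = 0.31), as without Supt6-KO mouse 3 or mouse 4 (range over single mice 0 to 1). Il33 passed without Supt6-KO mouse 1 (1.44), mouse 2 (1.50) or mouse 3 (1.43), and DESeq2 gave it no p. Supt6 had -0.79 with a length correction and -0.75 with the replicate block and length correction, both under 2-fold.

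Over all genes, 2271 were higher when tested against 2-fold, and library totals gave 1470 higher and 6802 lower. The pathway lists held 7 lower calls, against totals of 4 with DESeq2, 4 with the block and length correction, 18 with library totals, 0 against 2-fold and 3 to 8 without single mice. Ratios past the threshold numbered 0 to 6 without single mice. There were 6 without Supt6-KO mouse 4, which adds Il36g over Il36rn and Il1a over Il1rn. There were 0 without Supt6-KO mouse 1, 2 or 3, when too few ratios reach the smallest p for it to pass after adjustment. Without any 1 control mouse the same 4 ratios had an adjusted p of 0.05 each (exact permutation test), not under the threshold. With the length trend removed, chosen after seeing the data, 4 ratios passed: Il36b over Il36rn turned to -0.17 and was lost, and Il36g over Il36rn (-1.45) was gained. Il33 over Il1rl1 had log2 differences of -0.81 to 0.065 without single mice, above 0 only without Supt6-KO mouse 2. With median transcript lengths the share of Il36rn was 23.9% in controls and 30.1% in Supt6-KO mice, where Il36a was then second, and by TPM it was 25.0% in controls. By Spearman's rho 2 of 30 like pairs were kept.

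A replicate block over the titles' numbers, which leaves out control mouse 5, gave 3136 genes higher and 3834 lower, Supt6 -1.46 and the same 7 and 1 ligand counts. Same-numbered mice deviated together little (r of 0.0133, 0.234, 0.215 and 0.0685), so the numbers were not taken to pair mice. Depth limits values on few counts, such as Il18bp (15 to 33 a mouse), and left Elane and Il17c untested.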
